A study of Rattus norvegicus with 6 samples.

Results

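The annexin genes measured here are Anxa1, Anxa2, Anxa3, Anxa4, Anxa5, Anxa6, Anxa7, Anxa8 and Anxa11, 9 of the 22093 genes named on the array. They were chosen by name. Each had exactly 1 row whose only gene symbol was its own, so that no choice between rows was needed, and every one entered the tests. The arrays, 6 in all with 1 rat each, profiled Achilles tendons of male Sprague Dawley rats that had received no treatment. The tested animals were 3 rats aged 6 to 8 weeks (P 6-8w), and they were set against 3 rats killed 1 day after birth (P 1d). All tendons came from the left hindlimb and had been freed of skin, and RNA of the whole tissue was taken, so every value averages over the cells of the sample. The comparison asks which genes change their expression while the neonatal tendon matures.

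Annexins are proteins that bind acidic phospholipids when calcium rises. They share a core of annexin repeats that docks on the membrane, and differ in a short N-terminal tail that binds partners such as S100 proteins. The family is known for sealing torn plasma membranes, for moving vesicles, for binding plasminogen activators at the cell surface and, in mineralising cartilage, for its place in matrix vesicles.

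As deposited, 3 annexins were lower in P 6-8w tendons, namely Anxa2, Anxa5 and Anxa6, none was higher and 6 were not called. A gene is called where limma, a moderated test fitted over all 22093 genes, gave a Benjamini-Hochberg adjusted p under 0.05 and the log2 difference was over 1 in size. By the same rule 16.8% of all genes were lower and 2.46% were higher. Each difference is the P 6-8w mean less the P 1d mean of the deposited log2 signals. Their median over the 9 annexins was -0.50, beside 0.04 over all genes. These values depend on how the arrays are scaled, and 5 scalings were compared: the signals as deposited, the arrays centred on all named genes, on widely expressed reference genes or on named genes with a mean signal of at least 8, and quantile normalization. The annexin median was -0.63 with centring on all named genes, but turned to 0.52 on reference genes, 1.29 on genes of signal 8 or more and 0.14 after quantile normalization. Over all genes the median was -0.08, 1.06, 1.83 and -0.0047 in that order. On reference genes 12140 of all 22093 genes were called higher and 1317 lower. On genes of signal 8 or more it was 17280 and 591, and after quantile normalization 894 and 990. After quantile normalization over the named genes, Anxa6 alone was still lower, Anxa2 and Anxa5 were not called, and Anxa1 and Anxa4 were higher. In each of the 5, Anxa2, Anxa5 and Anxa6 had negative differences and Anxa1 and Anxa3 positive ones. Centring takes 1 offset per array from every gene, so all genes share the error of that offset. That error is treated by limma as independent between genes. Adjusted p values under the centrings on reference genes and on genes of signal 8 or more are therefore not read as strength of evidence.

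The promoter windows of Anxa2 and Anxa5, both called lower as deposited, are shown first. That of Anxa1 is set beside them because Anxa2 and Anxa1 diverged within the same samples. Windows from the RefSeq table of the rat build GRCr8, 250 bases before to 50 bases after the annotated start, were matched by symbol for 8 of the 9 annexins, all but Anxa6. The Anxa2 window is chr8:78986002-78986301 on the plus strand, that of Anxa5 is chr2:121272647-121272946 on the minus strand, and that of Anxa1 is chr1:227303683-227303982 on the minus strand. Each is written 5′ to 3′ along the gene, and capitals mark matches, on either strand, to 4 motifs: the GC box GGGCGG, the TATA box TATAAA, the AP-1 site TGAGTCA and the CCAAT box.
Anxa2: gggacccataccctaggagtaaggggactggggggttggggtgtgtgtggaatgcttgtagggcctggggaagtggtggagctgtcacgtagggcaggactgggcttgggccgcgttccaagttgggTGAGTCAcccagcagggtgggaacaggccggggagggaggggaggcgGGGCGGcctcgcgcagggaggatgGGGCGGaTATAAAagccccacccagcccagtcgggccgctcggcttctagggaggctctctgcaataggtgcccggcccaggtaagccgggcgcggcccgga
Anxa5: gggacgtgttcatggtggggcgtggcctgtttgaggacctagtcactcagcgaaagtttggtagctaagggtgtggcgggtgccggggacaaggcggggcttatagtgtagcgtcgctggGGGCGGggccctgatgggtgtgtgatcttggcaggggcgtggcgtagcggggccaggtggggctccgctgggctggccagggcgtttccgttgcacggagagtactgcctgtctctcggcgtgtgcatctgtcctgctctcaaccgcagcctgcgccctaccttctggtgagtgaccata
Anxa1: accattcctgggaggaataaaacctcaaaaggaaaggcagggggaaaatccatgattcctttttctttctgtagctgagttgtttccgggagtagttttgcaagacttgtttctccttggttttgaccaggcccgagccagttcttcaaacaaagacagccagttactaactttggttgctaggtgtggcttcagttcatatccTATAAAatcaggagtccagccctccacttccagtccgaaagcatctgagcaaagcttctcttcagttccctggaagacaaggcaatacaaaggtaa
The Anxa2 window held 1 TATA box that begins 45 bases before the start, 2 GC boxes at 76 and 52 bases before it and 1 AP-1 match at 123 bases before it. That of Anxa1 held a TATA box 46 bases before the start and no GC box. The Anxa5 window held a GC box 130 bases before the start and no TATA box. Among the 8 windows, 6 held a GC box, 2 a TATA box, 1 an AP-1 match and 2 a CCAAT box. Of the 33469 windows in the table, 33.1% held the GC box, 14.2% the TATA box, 4.63% the AP-1 site and 37.5% the CCAAT box. The TATA box was thus present both in a gene that was lower and in one that was not. A match describes the letters only.

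The samples and the scale set limits on what follows. The median signal of all rows was 4.43 to 4.54 on the P 6-8w arrays and 3.93 to 3.98 on the P 1d arrays, and the highest value, which lay between 19.56 and 19.79, was far above any annexin, the highest of which reached 14.96. Tendon markers averaged 12.71, 11.32 and 12.23 on P 6-8w replicates 1 to 3 and 12.67, 12.40 and 12.20 on P 1d replicates 1 to 3. Tnmd, Thbs4, Kera and Dcn were bright in every sample, whereas Scx and Mkx stood at 4.44 to 5.08 throughout, close to the medians of the named genes. Muscle RNA was present at both ages (13 markers averaged 11.16 to 13.44 at P 6-8w and 14 to 14.41 at P 1d). Epidermal markers, 11 of 14 with a row, averaged 4.65 to 4.78 on the P 6-8w arrays, and 8.77, 4.24 and 10.72 on P 1d replicates 1, 2 and 3. Not every marker was raised on P 1d replicates 1 and 3. Sfn had 4.73 and 4.97 there and Epcam 4.51 and 4.56, beside highest P 6-8w values of 5.08 and 4.56. By the markers that were raised, P 1d libraries 1 and 3 went against their skin-free label. In whole tissue, fewer cells of a type and less RNA per cell cannot be told apart.

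Anxa2 encodes the annexin that forms a complex with S100A10 and serves as a plasminogen receptor. It had 12.22, 10.69 and 10.85 in P 6-8w tendons and 14.96, 14.95 and 13.96 in P 1d tendons. The groups did not overlap, and the P 6-8w sample nearest to the neonatal ones was replicate 1. The log2 difference was -3.37 (standard error 0.51, 95% interval -4.64 to -2.10, adjusted p = 0.00409 from limma), a level 10.3-fold lower on the deposited scale. Against P 1d replicate 2 alone, the neonatal sample with dim epidermal rows, it was -3.70 and not called (adjusted p = 0.0931 from limma). That fit has a single P 1d array, assumed to vary like the P 6-8w arrays, so a call lost there says little. After quantile normalization it was -0.68 (adjusted p = 0.24 from limma).

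Anxa5 encodes the annexin whose affinity for phosphatidylserine made it the standard probe for dying cells, and which is abundant in matrix vesicles. Its signals were 10.05, 9.24 and 9.50 in P 6-8w tendons and 12.16, 12.65 and 11.70 in P 1d tendons. Again every P 6-8w sample lay below every P 1d sample. The difference was -2.57 (standard error 0.32, 95% interval -3.37 to -1.78, adjusted p = 0.00215 from limma), or 5.95-fold lower on the deposited scale. It was -3.05 against P 1d replicate 2 alone (adjusted p = 0.0547), -0.78 with the arrays centred on genes with a mean signal of at least 8 (adjusted p = 0.0173), and -0.43 after quantile normalization (adjusted p = 0.217), all from limma, and none of these was called.

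Anxa6 encodes a large annexin with a duplicated core, found at the plasma membrane and endosomes and in muscle at the sarcolemma. It stood at 9.37, 7.76 and 8.39 in P 6-8w tendons and at 12.21, 12.39 and 11.99 in P 1d tendons. The neonatal samples were tightly grouped, while those at P 6-8w spread over 1.61. With a difference of -3.69 (standard error 0.42, 95% interval -4.74 to -2.64, adjusted p = 0.00168 from limma), or 12.9-fold lower, Anxa6 had the lowest difference of the family. Its gap to Anxa2 was smaller than either standard error, so neither can be ranked above the other. Anxa6 was the annexin called lower in all 5 scalings, with -1.71 after quantile normalization (adjusted p = 0.00492 from limma), although not against P 1d replicate 2 alone (-3.88, adjusted p = 0.085). For each of Anxa2, Anxa5 and Anxa6 an exact two-sided permutation test of 3 arrays against 3 gave p = 0.1, the smallest it can give.

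**Figure D1:**
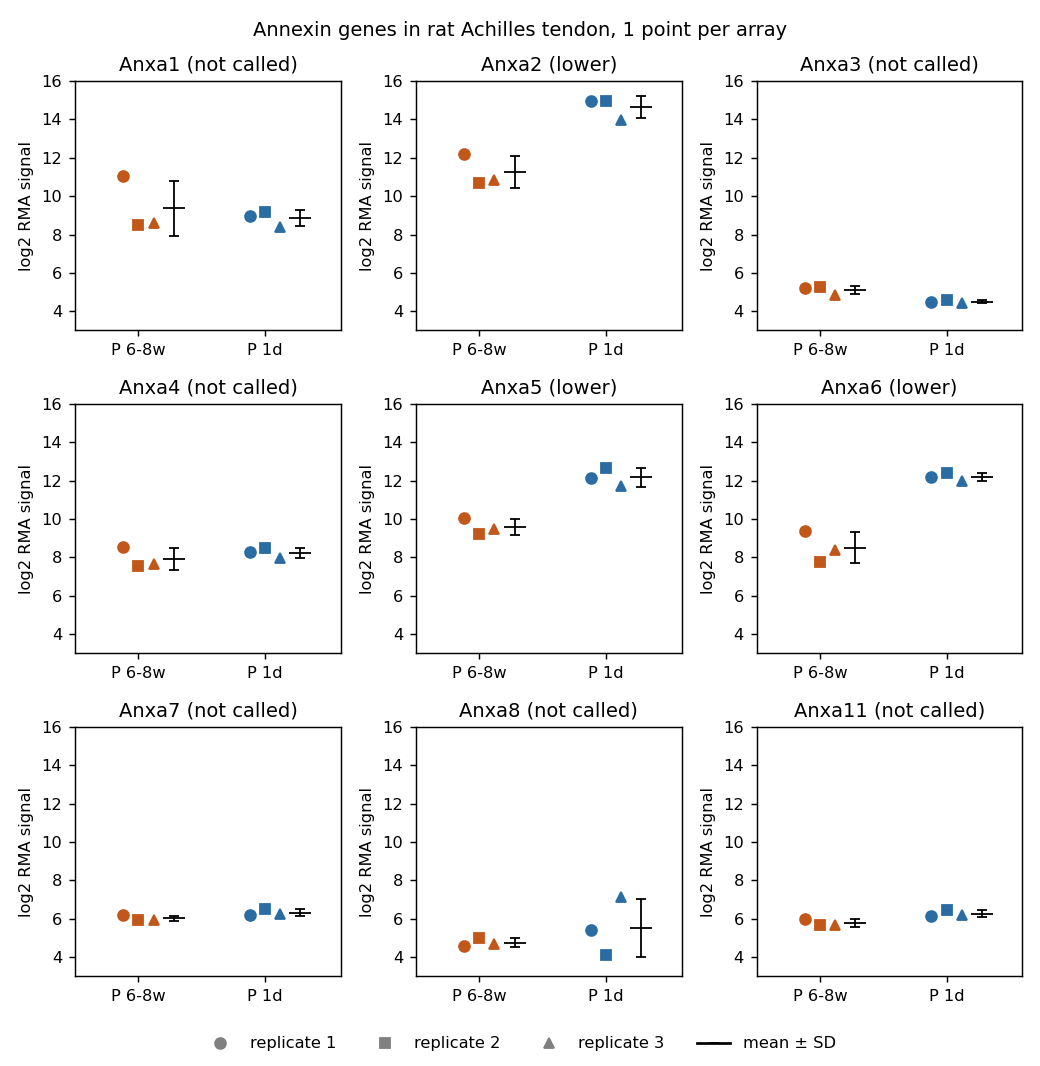
Log2 RMA signal of each annexin on the 6 arrays. Orange symbols are the P 6-8w tendons and blue ones the P 1d tendons, the shape gives the replicate, and the black bar is the mean ± SD (n = 3 per group). Anxa2, Anxa5 and Anxa6 separate the ages by differences of -3.37, -2.57 and -3.69, while the Anxa1 and Anxa4 groups overlap and Anxa8 is spread among the P 1d arrays.

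Anxa1 and Anxa4 had different patterns from these. Anxa1 encodes the glucocorticoid-induced annexin that dampens inflammation through formyl peptide receptors. Its signals were 11.03, 8.47 and 8.58 in P 6-8w tendons and 8.99, 9.18 and 8.41 in P 1d tendons. One sample, P 6-8w replicate 1, was far above the other 5, and the rest lay between 8.41 and 9.18. The difference was 0.50 (standard error 0.75, 95% interval -1.37 to 2.37, adjusted p = 0.578 from limma), and without P 6-8w replicate 1 it turned to -0.34 (adjusted p = 0.316). Anxa1 was called higher in 3 of the 5 scalings, with 1.52 on reference genes (adjusted p = 0.0106 from limma), 2.29 on genes of signal 8 or more (adjusted p = 3.6e-06) and 2.23 after quantile normalization (adjusted p = 0.033). The 2 centrings called 12140 and 17280 of all 22093 genes higher, so most genes of the array share the first 2 calls. The share among genes of the brightness of Anxa1 was not counted. The adjusted p values of these 2 calls have the limit given above. As deposited, the interval allows a shift of over 1 in either direction. Anxa4, an annexin of secretory and epithelial cells, had 8.56, 7.54 and 7.65 in P 6-8w tendons and 8.29, 8.48 and 7.95 in P 1d tendons. Here too replicate 1 gave the highest P 6-8w value and the groups overlapped, with a difference of -0.32 (standard error 0.31, 95% interval -1.10 to 0.46, adjusted p = 0.396 from limma). Anxa4 turned positive after quantile normalization (1.17, adjusted p = 0.00943) and with the arrays centred on reference genes (0.70) or on genes of signal 8 or more (1.47).

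Bright rows were in general lower at P 6-8w, and the annexins are read against that. Of the 1970 genes with a mean signal of at least 8, 72.5% were called lower, and of the 5 annexins among them 3 were. The median difference was -1.70 for genes between 8 and 10, -2.11 between 10 and 12 and -2.73 between 12 and 14. Anxa2 lay among genes of its brightness, where 31.5% of them had a lower difference. For Anxa5 this share was 37.5% and for Anxa6 it was 15%. Anxa1 and Anxa4 lay at the other side of their bin, where 2.87% of genes had a difference above that of Anxa1 and 9.63% one above that of Anxa4. These shares describe the arrays and carry no test.

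**Figure D2:**
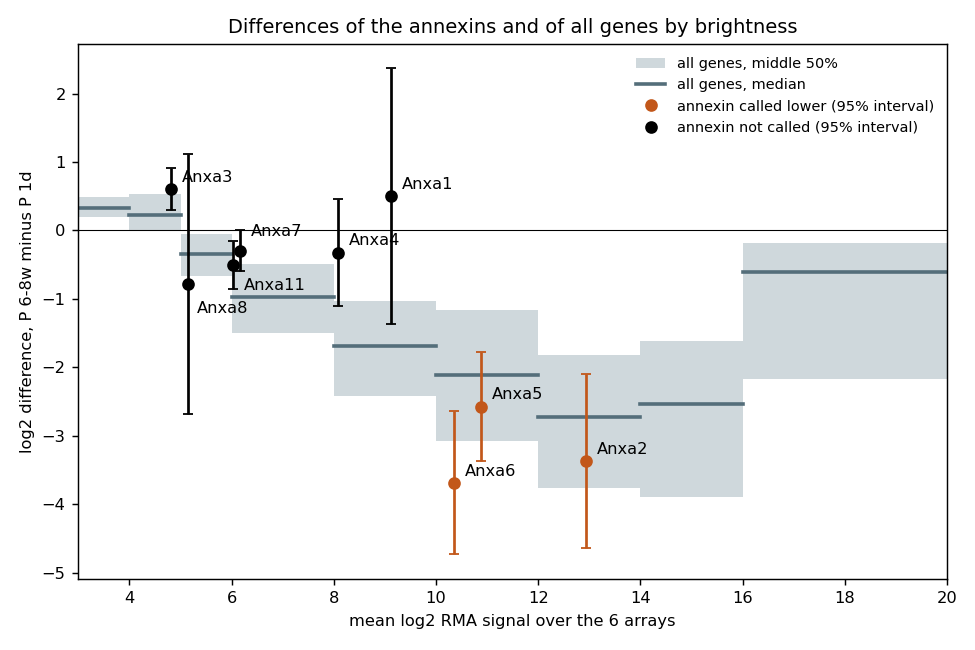
Log2 difference (P 6-8w minus P 1d) against the mean log2 signal over the 6 arrays. Points are annexins with their 95% intervals from limma, orange where called lower, and grey boxes give the middle 50% and the median of all genes in bins of signal. Anxa2 and Anxa5 lie inside the box of their bin, whereas Anxa1, at 0.50, and Anxa4, at -0.32, lie above the box of the genes between 8 and 10, whose median is -1.70.

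The remaining 4 annexins had mean signals between 4.81 and 6.16, where small differences can lie in the background of the array. Anxa3, known from neutrophils and endothelium, had 5.21, 5.27 and 4.87 in P 6-8w tendons and 4.48, 4.59 and 4.45 in P 1d tendons. All P 6-8w samples were above all P 1d samples, as for 34.8% of all genes. The difference of 0.61 (adjusted p = 0.0102 from limma) was under the limit of 1. Anxa3 was called higher with centring on reference genes (1.63, adjusted p = 0.000166 from limma) and on genes of signal 8 or more (2.40, adjusted p = 1.76e-07), and was 0.61 after quantile normalization. Both centrings called most genes higher (12140 and 17280 of 22093), and the limit on their adjusted p values holds here too. Among genes with a signal between 4 and 5 the median difference was 0.22.

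Anxa11, which binds the calcium sensor ALG-2 and tethers RNA granules to lysosomes, had 5.99, 5.66 and 5.66 in P 6-8w tendons and 6.16, 6.48 and 6.17 in P 1d tendons. The P 6-8w samples were all lower, which with Anxa2, Anxa5 and Anxa6 makes 4 annexins whose P 6-8w values all lay below the P 1d values, beside 34.1% of all genes. Its difference was -0.50 (adjusted p = 0.0284 from limma), again under the limit. Anxa7, the granule-fusing annexin also called synexin, had 6.17, 5.93 and 5.94 in P 6-8w tendons and 6.17, 6.51 and 6.24 in P 1d tendons. The groups touched at 6.17, and the difference was -0.29 (95% interval -0.60 to 0.01, adjusted p = 0.089 from limma). Both Anxa7 and Anxa11 turned positive after quantile normalization (0.44 and 0.14) and when the arrays were centred on reference genes (0.73 and 0.52) or on genes of signal 8 or more (1.5 and 1.29). With the fold limit left out, Anxa3 and Anxa11 also passed the test, which makes 5 of 9, beside 54.3% of all genes.

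Anxa8, an annexin of stratified epithelia, followed single samples. It had 4.60, 5.01 and 4.66 in P 6-8w tendons and 5.42, 4.09 and 7.11 in P 1d tendons. The P 1d samples enclosed all P 6-8w values, with replicate 3 highest and replicate 2 lowest. Its difference was -0.78 (standard error 0.76, 95% interval -2.69 to 1.12, adjusted p = 0.399 from limma), and it was 0.0017 without P 1d replicate 3 and 0.67 against P 1d replicate 2 alone (adjusted p = 0.157 from limma). Epidermal markers had the same order of P 1d samples. Krt1, the keratin of suprabasal epidermis, had 5.4, 4.32 and 4.32 at P 6-8w and 17.94, 4.25 and 18.86 at P 1d, and Krt14, that of basal cells, had 5.06, 4.91 and 5.10 at P 6-8w and 9.0, 4.35 and 13.13 at P 1d. The part of epidermal RNA in the Anxa8 signal was not tested. Epidermis also expresses Anxa1 and Anxa2. Of the P 1d arrays bright in epidermal rows, replicate 1 gave the highest P 1d value of Anxa2 and replicate 3 the lowest of both genes, and the part of epidermal RNA in them was not tested either.

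**Figure D3:**
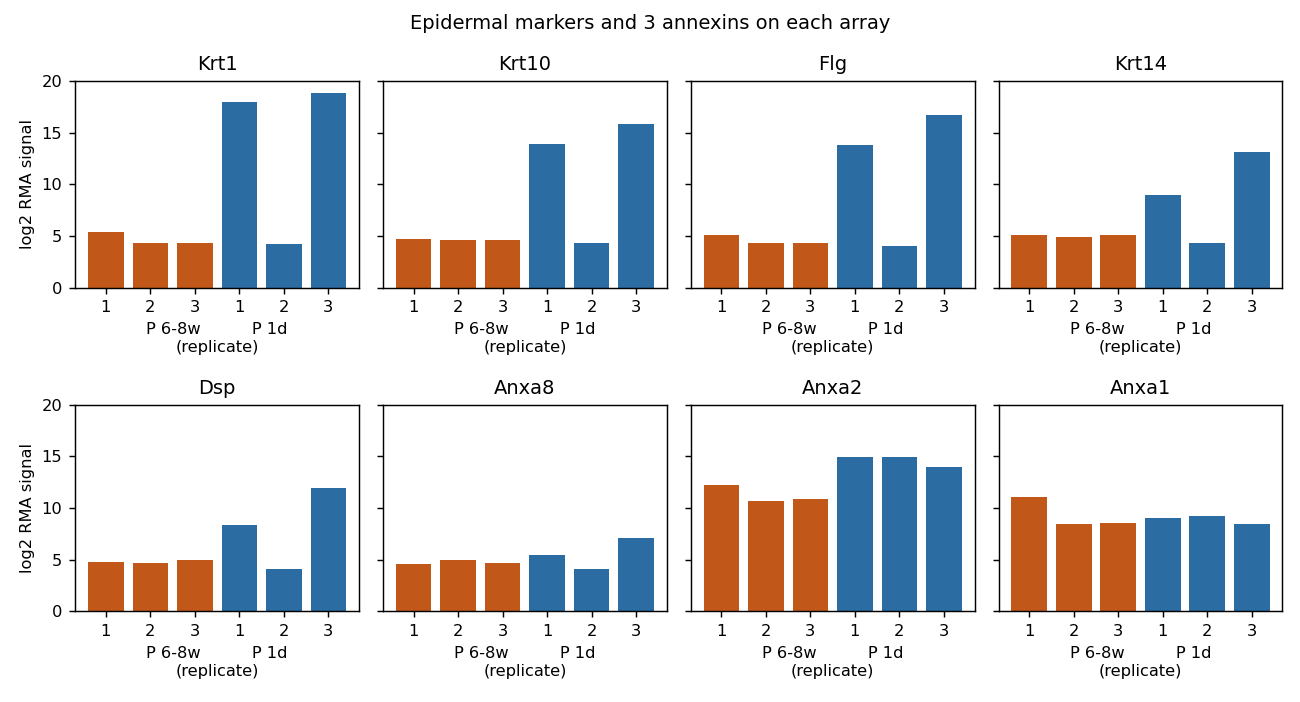
Log2 RMA signal on each of the 6 arrays (orange P 6-8w, blue P 1d, numbered by replicate) of 5 epidermal genes and of Anxa8, Anxa2 and Anxa1. Anxa8 has its highest value, 7.11, on P 1d replicate 3 and its lowest, 4.09, on P 1d replicate 2, as Krt14 has with 13.13 and 4.35, whereas Anxa2 is at 13.96 and 14.95 there.

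Within P 6-8w, replicate 1 was high for bright rows in general, annexins included. It gave the highest of the 3 values for 7 of the 9 annexins, where this held for 37.2% of all genes and for 75% of genes with a signal of at least 8. Its excess over the mean of the other 2 was 2.51 for Anxa1, 1.45 for Anxa2, 1.30 for Anxa6, 0.97 for Anxa4 and 0.68 for Anxa5, beside a median of 0.65 over the genes of signal 8 or more. Adipocyte markers averaged 7.79 on that array and 6.62 and 6.52 on replicates 2 and 3, and endothelial markers 8.46 against 7.72 and 7.80. Replicate 1 was also highest for cartilage markers (8.11 against 7.04 and 7.47), tendon markers (12.71 against 11.32 and 12.23) and reference genes (9.65 against 9.01 and 9.30). Skeletal muscle markers, the brightest list, were instead highest on replicate 3 (13.09, 11.16 and 13.44 on replicates 1 to 3). Macrophage and neutrophil markers were level at 5.25, 5.17 and 5.23. Their part in the annexin values was not tested. Without this array, Anxa2, Anxa5 and Anxa6 had differences of -3.85, -2.80 and -4.12 and were called.

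Genes for proteins that bind annexins or act beside them were then measured. Of 18 such genes 16 had a row. In P 6-8w tendons 4 of these were lower and 2 higher, beside 16.8% and 2.46% of all genes. The other 10 were not called, and the median difference was -0.63. The balance turned with the scaling, with 2 lower and 5 higher after quantile normalization (median 0.75), 4 lower and 5 higher on reference genes (0.40) and 3 lower and 9 higher on genes of signal 8 or more (1.17). Of all 22093 genes, 894, 12140 and 17280 were higher in that order. S100a11, whose product binds the Anxa1 tail, had 10.72, 9.06 and 9.51 at P 6-8w and 12.66, 13.33 and 13.32 at P 1d, a difference of -3.34 (adjusted p = 0.00326 from limma). Pdcd6ip, the ESCRT adaptor ALIX, and Tsg101, an ESCRT-I subunit gene, were lower by limma as well (-3.01 with adjusted p = 0.00284, and -2.51 with adjusted p = 0.00202). Kdr, a receptor for VEGF and itself an endothelial marker, had -2.84 (adjusted p = 0.00699). S100a4, a gene of motile fibroblasts whose product binds Anxa2, was higher, with 8.59, 7.19 and 8.34 at P 6-8w and 5.50, 5.09 and 4.92 at P 1d (difference 2.87, adjusted p = 0.00323 from limma). Gsn, for the actin-severing protein gelsolin, was also higher by 2.58 (adjusted p = 0.0348). S100a11, Pdcd6ip, S100a4 and Gsn kept their call in all 5 scalings, whereas after quantile normalization Kdr had -0.93 and Tsg101 -0.65 and neither was called.

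S100a10, the partner gene of Anxa2, did not pass the test. It had 13.45, 11.89 and 12.52 in P 6-8w tendons and 14.47, 14.60 and 13.21 in P 1d tendons, and the groups overlapped because P 6-8w replicate 1 was above P 1d replicate 3. Its difference was -1.47 (95% interval -2.84 to -0.10, adjusted p = 0.0673 from limma), and it turned to 1.26 after quantile normalization and 0.32 with the arrays centred on genes of signal 8 or more. S100a6, whose product binds several annexins, had 5.70, 5.42 and 5.95 at P 6-8w and 4.91, 4.68 and 4.67 at P 1d (difference 0.94, adjusted p = 0.00551 from limma, under the limit of 1). It was called higher in 3 of the 5 scalings, among them the centrings on reference genes and on genes of signal 8 or more, where most genes were.

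Centring an array shifts every gene on it alike, so that the difference between 2 genes within an array is not moved by it. Such differences were taken for 3 pairs, chosen after their values were seen. The level of one row against another has no meaning on its own and only its change between ages is read. Anxa2 minus S100a10 was -1.23, -1.20 and -1.67 on the P 6-8w arrays and 0.49, 0.35 and 0.75 on the P 1d arrays. The values were close within each age and far apart between ages: the change was -1.90, so Anxa2 fell relative to S100a10, and it was -1.94 after quantile normalization. Anxa2 minus Anxa1 was 1.19, 2.22 and 2.27 on the P 6-8w arrays and 5.97, 5.77 and 5.55 on the P 1d arrays, a change of -3.87 (-2.91 after quantile normalization). Anxa1 minus S100a11 was 0.31, -0.59 and -0.93 at P 6-8w and -3.67, -4.15 and -4.91 at P 1d, a change of 3.84 (3.35 after quantile normalization). In none of the 3 pairs did the ages overlap. Among single genes, 34.1% lay wholly below and 34.8% wholly above at P 6-8w, and the share of other pairs without overlap was not counted. The medians of all genes in the brightness bins of Anxa2 and Anxa1 also differed, at -2.73 and -1.70. The exact two-sided permutation test gave p = 0.1 for each, the smallest that 3 arrays against 3 allow. These p values were not adjusted for the choice of the pairs.

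**Figure D4:**
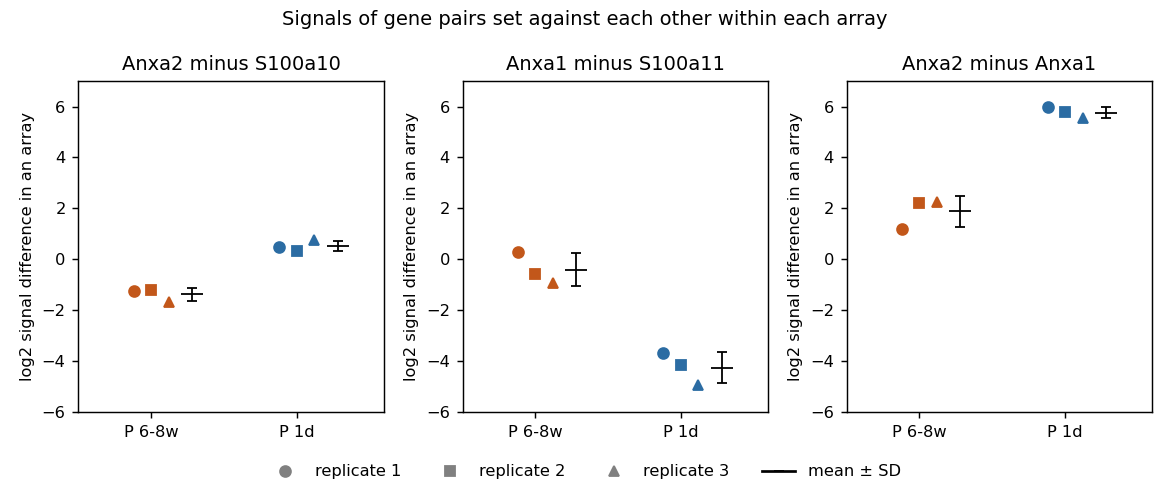
Log2 signal of one gene minus that of another on the same array, for Anxa2 and S100a10, Anxa1 and S100a11, and Anxa2 and Anxa1 (orange P 6-8w, blue P 1d, shape by replicate, black bar mean ± SD, n = 3 per group). The heights have no meaning of their own, and the change between ages is -1.90, 3.84 and -3.87 in that order, with no overlap.

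Other groups around the annexins were counted in the same fit. Of 19 plasma membrane repair genes, 5 were lower and none was higher (beside 16.8% and 2.46% of all genes), 14 were not called, and the median was -0.67. This count too turned with the scaling, with 2 lower and 3 higher after quantile normalization (median 0.45), 2 lower and 1 higher on reference genes (0.35) and 1 lower and 11 higher on genes of signal 8 or more (1.12). The same scalings called 894, 12140 and 17280 of all 22093 genes higher. On genes of signal 8 or more most of the list was higher, as were most genes. On reference genes only 1 of the 19 was higher, although most genes were. Cav3, the caveolin of muscle, had 5.88, 6.16 and 6.31 at P 6-8w and 9.82, 10.76 and 12.16 at P 1d, a difference of -4.80 (adjusted p = 0.00222 from limma). Trim72, which nucleates repair patches in muscle, Dysf, the calcium sensor dysferlin, and Capns1, the small calpain subunit, had differences of -2.28, -1.78 and -1.27 (adjusted p = 0.0015, 0.000206 and 0.0022). Cav3 and Trim72 are muscle genes, and of the 13 muscle markers 7 were lower and 2 were higher. These markers include myosin heavy chain genes that went opposite ways, Myh3 (-10.55) and Myh8 (-8.94) against Myh4 (8.31) and Myh1 (3.95). The count is thus no measure of the amount of muscle RNA. The part of muscle RNA in these values was not tested. Cav3 was called in all 5 scalings and Trim72 in 4, while Dysf and Capns1 were called as deposited and with centring on all named genes only, and Capns1 turned to 0.80 after quantile normalization and to 0.52 with centring on genes of signal 8 or more. Dysf was 0.01 under that centring.

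Of 10 plasminogen activation genes 9 had a row, 2 were lower and none was higher (beside 16.8% and 2.46% of all genes). On reference genes 1 was lower and 2 were higher, on genes of signal 8 or more none was lower and 6 were higher, and after quantile normalization none was called. These 2 centrings called 12140 and 17280 of all 22093 genes higher, and the counts under them in this paragraph are read beside that. Eno1, an enolase that also binds plasminogen at the cell surface, had -2.45 and Serpine2, a protease inhibitor gene, had -1.60 (adjusted p = 0.00119 and 0.00211 from limma), and after quantile normalization neither was called and Serpine2 stood at 0.02. Plat, Plau and Plaur, for the activators and the urokinase receptor, were not called. Of 11 genes linked to matrix vesicle mineralisation 3 were higher and 1 was lower (beside 2.46% and 16.8% of all genes), with a median of 0.39. On reference genes 9 were higher, on genes of signal 8 or more 10 and after quantile normalization 4, with 1 lower each time. Quantile normalization called 894 of all 22093 genes higher and 990 lower. Spp1, for osteopontin, had 7.73, 7.47 and 10.24 at P 6-8w and 5.22, 4.93 and 4.80 at P 1d (difference 3.50, adjusted p = 0.0135), and Mgp, an inhibitor of calcification, differed by 1.94 (adjusted p = 0.00885). Both kept their call in the 5 scalings. Ibsp, for bone sialoprotein, had 1.08 (adjusted p = 0.025) and was not called after quantile normalization or with centring on all named genes. The phosphate transporter gene Slc20a2 was lower in all 5 scalings (-3.88 as deposited, adjusted p = 0.000145 from limma), with 6.02, 6.00 and 5.83 at P 6-8w and 9.53, 9.86 and 10.10 at P 1d. Of 8 copines, another family that binds membranes with calcium, Cpne3 and Cpne2 were lower, at -1.77 and -1.0 (adjusted p = 0.00522 and 0.00327 from limma), but neither was called after quantile normalization (-0.24 and -0.36). Both turned positive with centring on genes of signal 8 or more (0.02 and 0.79), and Cpne2 also with centring on reference genes (0.02). Under those centrings no copine was lower, and 6 and 5 were higher.

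The 3 other annexin genes named on the array, Anxa9, Anxa10 and Anxa13, were dim, with means of 4.02, 4.38 and 4.35 at P 6-8w and 3.77, 4.54 and 3.57 at P 1d, and none was called as deposited. All 3 were called higher with centring on genes of signal 8 or more, as were 17280 of all 22093 genes. A row for the pseudogene Anxa2-ps1 had 7.81, 7.74 and 7.39 in P 6-8w tendons and 10.17, 10.32 and 9.10 in P 1d tendons (difference -2.22, adjusted p = 0.00483 from limma). It was lower in the samples in which Anxa2 was lower, and whether Anxa2 transcripts bind its probes was not tested.

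The genes whose pattern over the 6 arrays came closest to an annexin were found by the root mean square of the difference between the 2 genes after each was centred on its own mean, among 1970 genes with a signal of at least 8. For Anxa2 these were Bicc1, Copa and Mmp14, at 0.16, 0.21 and 0.25 on the log2 scale. For Anxa6 they were Pdia6, Lama4 and Rpsa-ps4 (0.10, 0.13 and 0.19), and for Anxa5 Dpysl3, Cdh13 and Laptm4b (0.19, 0.20 and 0.20). Nearest to Anxa1 were Ccdc80, Aoc3 and Htra1 (0.17, 0.29 and 0.31). Ccdc80 shared the high value of P 6-8w replicate 1, with 11.91, 9.40 and 9.24 at P 6-8w and 9.73, 10.18 and 8.92 at P 1d. Adam10, Msn and Heg1 were nearest to Anxa4 (0.09, 0.10 and 0.11). Prdx4, Sypl1 and Npc2 were nearest to Anxa11 and Npc2, Actb and Rps23 to Anxa7, all within 0.11, and Ostm1, Diras1 and Fmod were nearest to Anxa3 (0.13, 0.13 and 0.18). Anxa8 had no close neighbour among these genes, the nearest being Rora at 0.72. Such nearness over 6 arrays that differ by age is a description of shape only.

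**Figure D5:**
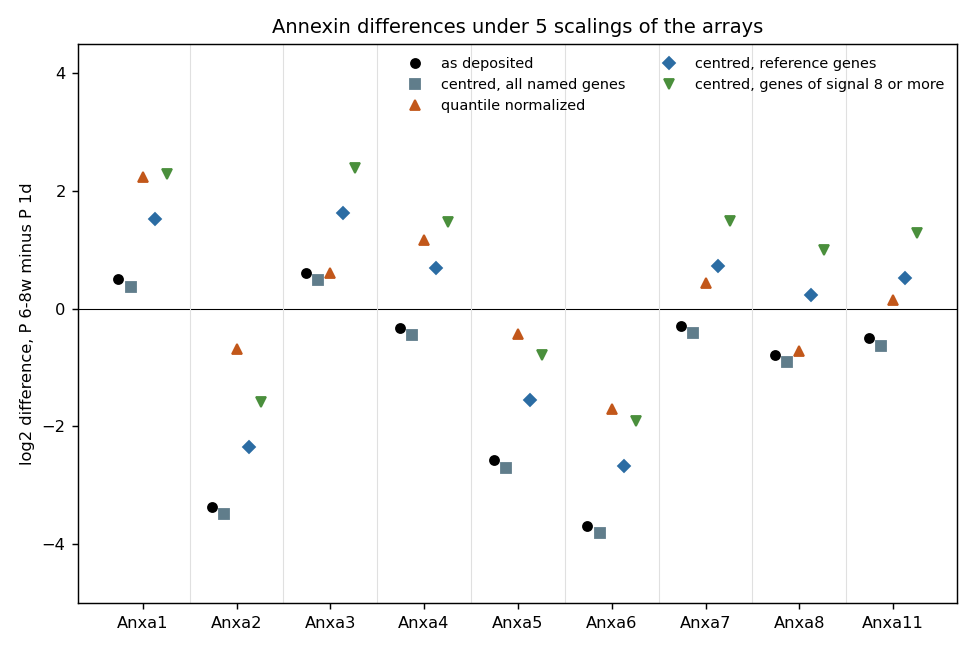
Log2 difference (P 6-8w minus P 1d) of each annexin under 5 scalings of the arrays, 1 symbol per scaling. Anxa2, Anxa5 and Anxa6 are below 0 and Anxa1 and Anxa3 above 0 under all 5, whereas Anxa4, Anxa7, Anxa8 and Anxa11 lie on both sides.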

How the data were processed

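RNA was hybridised to Affymetrix Rat Transcriptome Arrays 1.0, 3 per age. The authors applied RMA with its defaults, scaled the arrays globally, and deposited 1 column of log2 signals per rat with 2 decimals. A genome build was not given in the sources read. The other deposited table repeated all 413052 values. Of 68842 rows, 23446 carried 1 symbol in the platform annotation, 505 carried more than 1 and were left unnamed, and 44891 carried no symbol. For 1182 genes with several rows the row with the highest mean was used. Symbols were updated by Entrez ID (1 changed). Signals carry no detection calls here, and the number of arrays limits the precision.

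Groups came from the sample titles. P 6-8w and P 1d were compared with limma 3.58.1 (lmFit, eBayes) in R 4.3.3 without covariates, tested on simulated data first. The simulated noise was independent between genes and held no shift with brightness. That test therefore does not cover the scaling of the real arrays. The methods' t-test used a fold change over 2, kept here. The members and lists were chosen with earlier results of these data known. Named genes were all annexins, up to 4 called genes with the largest differences per list, 4 S100 genes and the 3 genes nearest to each annexin. The marker genes, Anxa2-ps1, Plat, Plau and Plaur were chosen after their values were seen. The alternatives were other tests, no fold limit, a replicate block, leaving out arrays, 4 scalings, a filter on dim genes and the mean of a gene's rows. Of 12 reference genes 11 had a row. Within-array pairs were added after seeing the data.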

Additional observations from a re-analysis of the deposited data

How the results depend on the processing

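The 3 annexin calls were the same in number with the methods' t-test, limma-trend, centring on all named genes, the filter on dim genes and the mean of a gene's rows. Leaving out each array in turn gave 3 annexins every time and 3791 to 4677 genes called. Without a fold limit 5 annexins and 12005 genes passed (56.3% lower, beside 87.2% of the 4249 as deposited). Against P 1d replicate 2 alone, an arm of 1 array, it was 0 annexins and 1159 genes (94.2% lower). Centring on reference genes gave 5 annexins (3 lower, 2 higher) and 13457 genes (9.79% lower), and centring on genes of signal 8 or more gave 8 annexins (2 lower, 6 higher) and 17871 genes (3.31% lower). These centrings moved the median difference of all genes to 1.06 and 1.83. Quantile normalization gave 3 annexins (1 lower, 2 higher) and 1884 genes (52.5% lower). The cause of these shifts was not tested.

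Directions turned as follows. Leaving out single arrays, Anxa1 ranged from -0.34 to 0.95 and Anxa8 from -1.51 to 0.0017. Anxa8 was 0.67 against P 1d replicate 2 alone. On reference genes Anxa4, Anxa7, Anxa8 and Anxa11 had 0.70, 0.73, 0.24 and 0.52, on genes of signal 8 or more 1.47, 1.5, 1.01 and 1.29, and after quantile normalization Anxa4, Anxa7 and Anxa11 had 1.17, 0.44 and 0.14. The filter on dim genes left out Anxa3 and Anxa8.

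The pair Anxa2 minus Anxa1 kept its direction but was smaller after quantile normalization, -2.91 beside -3.87.

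Replicate numbers did not pair the arrays (correlations of deviations 0.189, -0.099 and 0.16 for numbers 1, 2 and 3). With the replicate block 3 annexins and 4136 genes were called, and Anxa2, Anxa5 and Anxa6 had adjusted p = 0.00987, 0.0131 and 0.0102 from limma. Not every array correlated best with its own number. The block changed no other annexin call.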
